A study of Mus musculus with 24 samples.

Results

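The comparison described here set neural stem cells (NSCs) that carried the MommeD43 allele of Smchd1 on a C57BL/6J background against NSCs that carried the allele on an FVB/NJ background. MommeD43 is a single amino-acid substitution in the extended ATPase domain of SMCHD1, and the study examined how it alters the activity of the protein. Of the 24 RNA-seq columns in the series, 12 belonged to homozygous MommeD43 cells and 10 of these could be used, 5 libraries from 4 lines in each strain. The FVB cells were Smchd1MommeD43/MommeD43, with the allele made by ENU mutagenesis. The B6 cells were homozygous for the same substitution, introduced by CRISPR editing into a Smchd1-GFP fusion allele, so that every B6 cell made SMCHD1 joined to green fluorescent protein. Strain, the GFP fusion and the way the allele was made therefore changed together and cannot be told apart. The remaining usable libraries were 6 from 5 wild-type FVB lines and 6 from 4 wild-type B6 Smchd1-GFP lines. All lines were derived from cortex at E14.5 and were grown as adherent cultures for fewer than 10 passages in EGF and FGF. Below, the B6 Smchd1-GFP cells are called B6-GFP.

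SMCHD1 is a noncanonical member of the structural maintenance of chromosomes family, and it takes part in silencing the inactive X chromosome, some imprinted clusters and the clustered protocadherin genes. Cultured NSCs divide under EGF and FGF and can give rise to neurons, astrocytes and oligodendrocytes. Notch signalling keeps such cells undifferentiated: a ligand on a neighbouring cell releases the intracellular part of the Notch receptor, which joins RBPJ on DNA and turns on genes of the Hes and Hey families. Inbred mouse strains differ at many loci. Examples are Nnt, in which C57BL/6J carries a deletion, and the major histocompatibility complex (MHC) on chromosome 17, where C57BL/6J has the b haplotype and FVB/NJ the q haplotype.

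The deposited values were batch-corrected log2 CPM (reads of a gene scaled to a common library size) for 14922 genes. The MommeD43 columns FVB replicate 3 and B6-GFP replicate 2 of batch 1 were left out, since each was the average of the 5 columns that remained in the group. Relative to the deepest library, depth ran from 0.137 to 0.893 in the FVB MommeD43 libraries and from 0.435 to 0.994 in the B6-GFP ones. Batch 1 held both strains, batch 2 only FVB and batch 3 only B6-GFP. Within each strain the batches had been given equal means, so the strain difference averaged over both genotypes was set by batch 1. All 22 usable libraries were labelled female, yet all listed the Y-linked gene Ddx3y at 5.96 to 6.95 log2 CPM, so these libraries went against that label in both strains. The NSC markers Nes, Sox2, Slc1a3 and Fabp7 were all abundant, and only 1 of 12 microglial markers was in the table. The B6-GFP replicate 2 library stood apart from the other MommeD43 libraries, and its neuronal genes are given further on.

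Because the results turn in part on Notch target genes, the reference promoters of 2 of them are shown, as the 250 bases before the start site in RefSeq, build GRCm38.p6, plus strand. Capitals mark GTGGGAA or TTCCCAC, the letters that RBPJ reads on either strand. Hes5 (chr4:154960673-154960922) held 2 such matches, which began 226 and 83 bases before the start, and Nrarp (chr2:25180508-25180757) held 0 in this window. Of all 32851 promoter windows of this length, 5.42% held the motif. The 23 Notch pathway genes with a window had 30 windows, of which 3 held it, those of Hes5, Hey2 and Lfng. No window was available for Hes1 or Hey1, so their promoters were not read. These are reference letters from C57BL/6J, and the FVB sequence was not read.
Hes5: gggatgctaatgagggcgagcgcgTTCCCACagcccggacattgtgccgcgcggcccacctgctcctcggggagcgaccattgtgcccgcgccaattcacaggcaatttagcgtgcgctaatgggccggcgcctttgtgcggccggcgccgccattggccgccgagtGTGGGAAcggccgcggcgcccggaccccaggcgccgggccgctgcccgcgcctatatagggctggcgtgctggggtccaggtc
Nrarp: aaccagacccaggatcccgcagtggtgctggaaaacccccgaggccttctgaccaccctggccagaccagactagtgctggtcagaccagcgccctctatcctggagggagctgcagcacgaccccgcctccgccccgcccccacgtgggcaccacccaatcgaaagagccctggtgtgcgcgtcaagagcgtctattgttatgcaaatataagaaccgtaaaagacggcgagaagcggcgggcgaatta

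Smchd1 itself (chromosome 17, 71344489 to 71475366) was expressed in every MommeD43 library. Its log2 CPM in the FVB libraries was 7.28, 7.34, 7.32, 7.42 and 7.42, and in the B6-GFP libraries 7.04, 7.16, 7.24, 7.42 and 6.99. The B6-GFP lines overlapped the FVB lines. The fitted difference, B6-GFP minus FVB, was -0.28 (SE 0.08, adjusted p = 0.0102 by limma with Benjamini-Hochberg adjustment over all genes). Without quality weights it was -0.21 with an adjusted p of 0.485, and in batch 1 alone -0.21 with an adjusted p of 0.130, so the call was lost in both. Smchd1 mRNA does not check the substitution.

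Genes known to vary among inbred strains were examined first. Nnt, the mitochondrial nicotinamide nucleotide transhydrogenase (chromosome 13, 119335527 to 119409257), stood at 6.28, 6.43, 6.34, 6.32 and 6.33 log2 CPM in FVB cells. In B6-GFP cells it stood at 4.88, 5.07, 5.03, 4.91 and 4.72. The groups did not overlap, and the level was 2.74-fold lower in B6-GFP cells (difference -1.45, SE 0.07, adjusted p = 5.90e-12). Gabra2, a GABA-A receptor subunit that carries a deletion in C57BL/6J, was 0.77 higher in B6-GFP cells (SE 0.23, adjusted p = 0.0133), with overlapping lines. The part of that deletion in this value was not tested. The Gabra2 call was lost in 7 settings: without FVB replicate 2 the difference was 0.28 (adjusted p = 0.260) and with no quality weights 0.54 (adjusted p = 0.480). Glo1, glyoxalase 1, which is duplicated in some inbred strains, differed by 0.03 (SE 0.06, adjusted p = 0.752).

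Across all genes, 5126 of 14922 (34.4%) differed between MommeD43 cells of the 2 strains at an adjusted p under 0.05 (limma). Of these, 2199 (14.7% of all genes) were higher and 2927 (19.6%) lower in B6-GFP cells. The difference was over 2-fold for 1049 genes (7.03%), 423 higher and 626 lower. The median over all genes was -0.03, and it became 0.04 when every library was first set to the same median. That centring turned the split to 3013 higher and 2265 lower, so the balance of directions depended on the scaling. In 3182 genes (21.3%) the 4 lines of one strain all lay above the 4 lines of the other, and 2710 of these were called. With no quality weights the call fell to 1017 genes (6.82%), and all 1017 had the direction given here. It was 8179 without B6-GFP replicate 3 (3394 higher and 4785 lower). List counts given below for that setting are to be read beside this larger total. Those with no quality weights are to be read beside the 1017 genes (6.82%). A core of 932 genes (468 higher, 464 lower) passed in all 29 settings tried, and 73 of the 107 genes named by rule belong to it.

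The sharpest contrasts were genes read in one strain and near the floor of the table in the other. By the rule of line means below 0 log2 CPM in the lower strain and at least 3 in the higher, 10 called genes were on in B6-GFP cells and 2 were on in FVB cells. Gm6436, a pseudogene on chromosome 13, was between 6.70 and 7.40 in the B6-GFP libraries and between -2.02 and -1.42 in FVB. The noncoding RNA AA388235 lay at 4.66 to 5.11 in B6-GFP and at -3.03 to -1.48 in FVB. Myo7a, an unconventional myosin known from inner-ear hair cells, had line means of 3.64 ± 0.35 (SD, n = 4 lines) in B6-GFP cells and -0.45 ± 0.22 in FVB cells, the lowest B6-GFP library being at 2.81 and the highest FVB library at 0.20. Zfp33b, a zinc finger protein, had line means of 3.73 ± 0.16 (SD, n = 4 lines) and -0.21 ± 0.29, and Cmtm7, a MARVEL-domain membrane protein, 3.35 ± 0.40 and -0.06 ± 0.51. Gm10591 and Gm13304 sat on the floor in all 5 FVB libraries, at -2.56 and -2.52. Both lie in a stretch of near-identical copies on chromosome 4, so reads could have been divided among copies. Gm19601 was the last with a symbol, at 3.17 ± 0.64 and -1.98 ± 0.64.

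In the other direction, Rpl34-ps2, a ribosomal protein pseudogene on chromosome 13, was between 4.49 and 5.21 in FVB libraries and between -0.69 and 0.21 in B6-GFP. Clec3b, which encodes the plasminogen-binding protein tetranectin, read 3.54, 2.86, 3.34, 3.96 and 3.59 in FVB and -0.58, -0.57, -0.31, -1.58 and -1.23 in B6-GFP. In none of these 10 named genes did the libraries of the strains overlap, and all 10 passed in all 29 settings. No fold is given for them, since a difference from the floor depends on the prior count. Reads of both strains were aligned to the C57BL/6J reference, and the part of that alignment in these differences was not tested.

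Among genes expressed in both strains, the largest increases in B6-GFP MommeD43 cells included genes of the cell surface, of vesicles and of the matrix. Cpne8, a calcium-dependent lipid-binding copine, stood between 2.89 and 4.01 in FVB and at 7.95, 8.53, 9.15, 6.39 and 7.97 in B6-GFP. The fitted difference was 4.86 (SE 0.27, adjusted p = 1.74e-11). Trf, the iron carrier transferrin, was 4.32 higher and Thy1, a surface glycoprotein of neurons and T cells, 4.27 higher. Itga4, the integrin alpha 4 chain, was 3.17 higher, Rab3b, a vesicle GTPase, 3.08 higher, and S100a10, the partner of annexin A2, 2.46 higher. For Cpne8, Trf, Thy1, Itga4, Rab3b and S100a10 the B6-GFP replicate 2 library was the lowest of its group, and it still lay above every FVB library. Mmp2, a secreted gelatinase, was 2.19 higher.

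Dact1, a Dishevelled-binding regulator of Wnt signalling on chromosome 12, did not overlap between the strains. It read 4.64, 4.44, 4.41, 4.56 and 4.28 in FVB and 7.27, 7.28, 7.54, 7.18 and 7.67 in B6-GFP, a 6.97-fold difference (2.80, SE 0.09, adjusted p = 3.13e-15). Rpl29, a ribosomal protein of the large subunit, read 4.15 to 4.87 in FVB and 8.18 to 8.47 in B6-GFP (14.2-fold). Ribosomal protein genes have many processed copies in the genome, so the value of Rpl29 is uncertain. Syt1, the calcium sensor of synaptic vesicles, was 2.21 higher (SE 0.37), and its highest value, 7.88, came from B6-GFP replicate 2. Without that line the difference was 2.14 (adjusted p = 7.9e-05, limma). Its quality weight in the fit was 0.158, so leaving it out could change little. With no quality weights the difference of Syt1 was 2.56 (adjusted p = 0.0177, limma).

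The largest decreases included a Notch target, a coagulation cofactor and several metabolic and endosomal genes. Hes5, a transcriptional repressor that Notch induces in neural progenitors, read 4.83, 4.91, 3.62, 5.38 and 3.86 in FVB and 1.72, 1.20, 2.42, 1.94 and 0.96 in B6-GFP. Every B6-GFP library was below every FVB library, and the level was 9.23-fold lower (-3.21, SE 0.38, adjusted p = 1.54e-06). Wdfy1, a FYVE-domain protein of early endosomes, was almost constant in FVB, at 6.26, 6.37, 6.26, 6.32 and 6.31, against 3.39, 3.79, 3.28, 3.46 and 3.01 in B6-GFP. Thbd, thrombomodulin, was lower (difference -2.94, SE 0.40), as were Paqr7, a membrane progestin receptor (-2.66), and Hebp1, a haem-binding protein (-2.65). Hddc3, which encodes the NADPH phosphatase MESH1, had line means of 4.51 ± 0.10 and 1.86 ± 0.12 (SD, n = 4 lines). The differences were -2.99 for the pseudogene Gm6594, -2.60 for H2-T10 of the MHC and -2.48 for the noncoding RNA 1500009C09Rik.

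Erdr1, a gene of the pseudoautosomal region, had the largest fitted decrease (-5.90, SE 1.62, adjusted p = 0.00779), but it was uneven. FVB libraries were at 7.86, 7.42, 7.36, 7.17 and 7.63, whereas B6-GFP libraries were at -1.18, 7.03, 3.94, 5.68 and -3.60. The values 7.03 and 3.94 came from the same line in different batches. The call was lost in 7 settings, and the difference was -0.98 without B6-GFP replicate 1, -4.26 without B6-GFP replicate 4 and -3.07 without wild-type B6-GFP replicate 2.

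**Figure D1:**
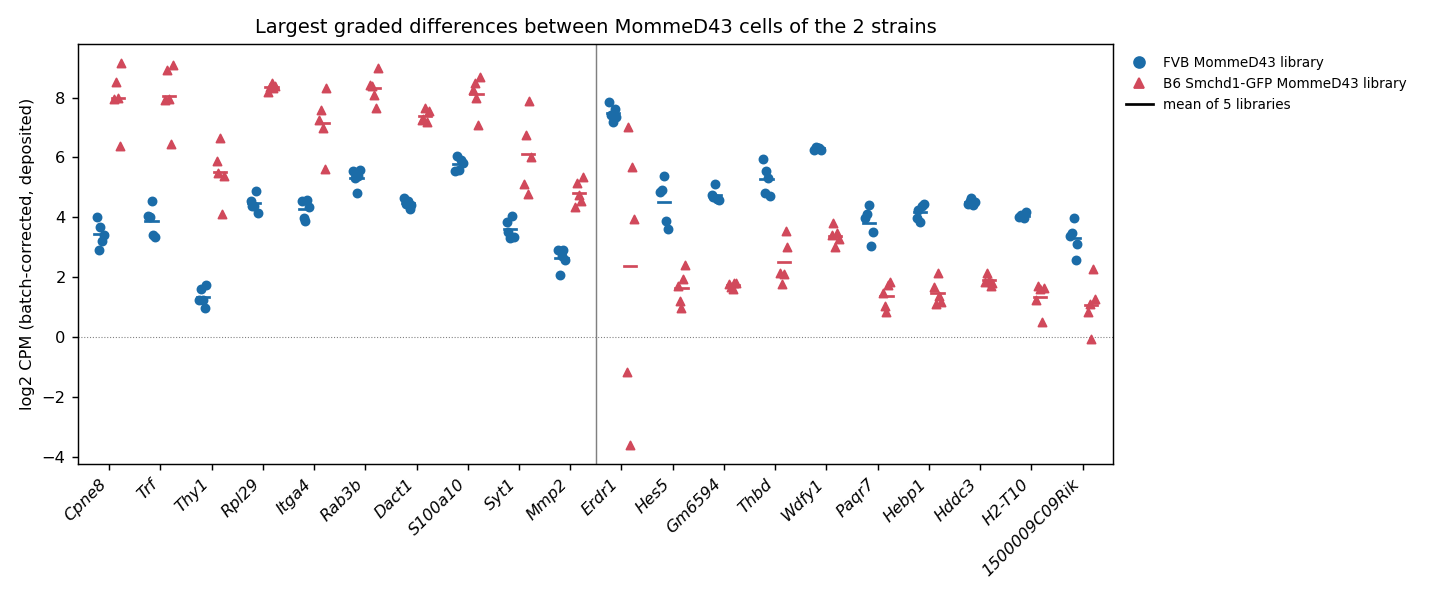
Deposited log2 CPM in each MommeD43 library for the 10 genes with the largest graded increase (left of the line) and decrease (right) in B6-GFP cells, with horizontal bars at the mean of 5 libraries. Wdfy1, Hddc3, Dact1 and Rpl29 form tight separate groups, while Erdr1 in B6-GFP cells spreads from -3.60 to 7.03.

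Notch pathway genes were then taken by role. Of 27 genes measured, 4 were called higher and 10 lower (37.0% against 19.6% of all genes), with a median of -0.16 against -0.03 over all genes. Among ligands, Dll3 was lower (-0.50), and Dll1 (0.13, adjusted p = 0.318) and Jag1 (-0.02, adjusted p = 0.922) did not pass. Among receptors, Notch1 was 0.17 higher (6.98 to 7.13 in FVB libraries, 7.14 to 7.47 in B6-GFP) and Notch3 was lower (-0.68). Rbpj, the DNA-binding partner, was 0.25 higher, and Numbl, which encodes a Numb-like protein, was 0.88 higher.

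Hes1, Hey1 and Nrarp, which Notch is known to induce, were among the 10 called lower. Hes1 read 5.89, 6.09, 6.01, 5.64 and 5.96 in FVB and 4.51, 4.35, 4.70, 3.86 and 4.37 in B6-GFP, with no overlap (-1.55, SE 0.18, adjusted p = 1.83e-06). Hey1 was lower (-0.72, SE 0.23, adjusted p = 0.0181), with libraries at 4.78 to 5.51 against 3.41 to 4.59. Nrarp, a feedback inhibitor of Notch, read 4.79, 4.88, 4.91, 4.34 and 5.04 in FVB and 4.12, 3.22, 4.20, 4.35 and 3.58 in B6-GFP. Its ranges met at a single value, since 1 B6-GFP library slightly exceeded the lowest FVB library, and the difference was -1.02 (SE 0.19, adjusted p = 0.000336), -1.57 without B6-GFP replicate 1 and not called with no quality weights (adjusted p = 0.142). Maml3, a Notch coactivator, went the other way and was 1.05 higher, with replicate 2 the highest at 3.55, and its call was lost without FVB replicate 2 (0.84, adjusted p = 0.0545). Hes5, whose promoter holds the motif at 2 positions, and Nrarp, whose window does not hold it, were thus both lower. With no quality weights 3 of the 27 genes passed, 1 higher and 2 lower, in a setting that called 6.82% of all genes. Hes5 and Hes1 were called in all 29 settings.

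**Figure D2:**
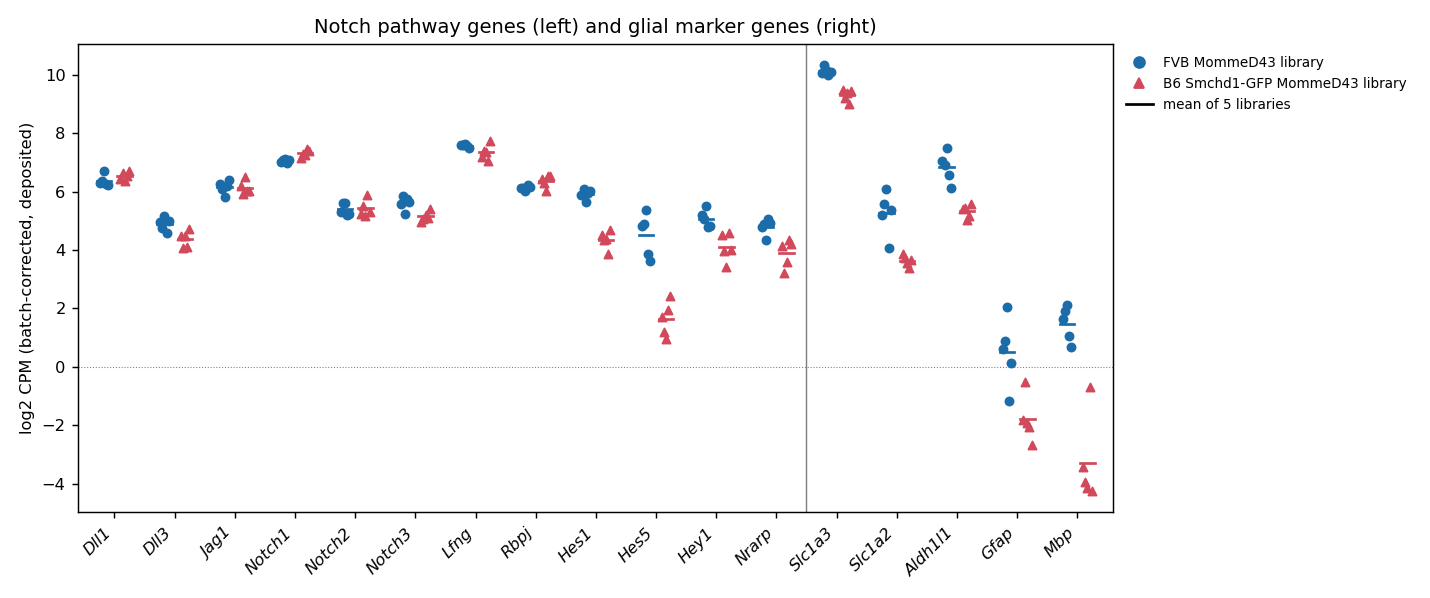
Deposited log2 CPM of Notch pathway genes (left) and glial marker genes (right) in each MommeD43 library, with bars at the mean of 5 libraries. Hes1 and Hes5 separate completely (Hes5 3.62 to 5.38 in FVB, 0.96 to 2.42 in B6-GFP), whereas Dll1, Jag1 and Notch2 overlap.

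Marker lists of neural cell types showed a lower level of astrocyte genes in B6-GFP cells. All 13 NSC markers were measured, with 2 called higher and 8 lower (61.5% against 19.6% of all genes) and a median of -0.42. Their summed level overlapped between the strains, at 13.12 to 13.28 log2 CPM in FVB and 12.97 to 13.30 in B6-GFP libraries. Nes, the intermediate filament nestin, was 0.70 higher (9.68 to 9.97 in FVB, 10.16 to 10.80 in B6-GFP), while Sox2, a stem cell transcription factor, was lower (-0.50), as was Prom1 (-1.02). Slc1a3, the glutamate transporter of radial glia, was lower (-0.82). Of 8 astrocyte markers, 0 were called higher and 7 lower (87.5%), with a median of -1.54. Slc1a2, an astrocytic glutamate transporter, was lower by a difference of -1.64, the folate enzyme Aldh1l1 by one of -1.44 and the glycolytic enzyme Aldoc by one of -0.71. Aqp4, the astrocyte water channel, was listed at -1.36 to 2.45 in FVB and at -2.83 to -1.78 in B6-GFP. The summed level of the 8 genes was 9.45 to 9.74 log2 CPM in FVB and 8.94 to 9.41 in B6-GFP libraries, without overlap. In bulk samples fewer cells of a type and less RNA per cell cannot be told apart.

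Of 12 oligodendrocyte genes 2 were called higher (16.7%) and 6 lower (50%), against 14.7% and 19.6% of all genes, with a median of -0.98. Myelin genes were among the lower ones. Mbp, myelin basic protein, read 1.64, 1.91, 0.68, 2.11 and 1.05 in FVB and -3.43, -3.94, -4.25, -0.67 and -4.14 in B6-GFP, without overlap. Cnp, a further myelin gene, was lower (-0.95). Gpr17, a receptor of oligodendrocyte precursors, averaged 1.12 in FVB and -2.25 in B6-GFP lines. The lineage factor Olig2 (0.20) and Cspg4, a progenitor proteoglycan (0.65), were the 2 called higher, while Pdgfra (-0.10, adjusted p = 0.893) did not pass. Of the 12, 0 were higher and 4 lower with no quality weights, 0 and 6 in batch 1 alone, and without FVB replicate 2 Olig2 differed by 0.11 (adjusted p = 0.145). The summed level of the 12 genes overlapped between strains, at 10.61 to 10.86 in FVB and 10.67 to 11.27 in B6-GFP.

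Neuronal genes varied mostly through 1 library. Of 14 measured, 3 were called higher and 3 lower (21.4% each, against 14.7% and 19.6% of all genes), and the median was -0.02. Dcx, a microtubule protein of migrating neurons, was listed at 1.94, 2.07, 1.91, 1.65 and 1.58 in FVB cells and at -0.26, -0.01, -0.80, 5.20 and 1.47 in B6-GFP cells, the value 5.20 being replicate 2. Tubb3 (6.48), Snap25 (4.25), Stmn2 (2.97), Tbr1 (4.61) and Neurod2 (2.73) were also highest of all MommeD43 libraries there. The summed neuronal level was 10.58 in that library and 10.02 to 10.22 in the other B6-GFP libraries, against 9.84 to 10.04 in FVB. Without replicate 2 the counts stayed at 3 higher and 3 lower, and the difference of Dcx was -1.93 (adjusted p = 0.00059, limma) against -1.85 with it. The fit had already given that library a quality weight of 0.158, in a range of 0.1 to 4.9. Leaving it out could therefore change little. The counts with no quality weights were 2 higher and 1 lower, the list median was 0.50 and Dcx differed by -0.36 (adjusted p = 0.911). Gad2, the enzyme that makes GABA, was lower in every B6-GFP library, replicate 2 included, since these (-3.32 to -0.42) lay below FVB (2.05 to 3.04). Of 12 dorsal forebrain genes 1 was called (8.33%) and of 10 ventral ones 3 (30%), against 34.4% of all genes.

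**Figure D3:**
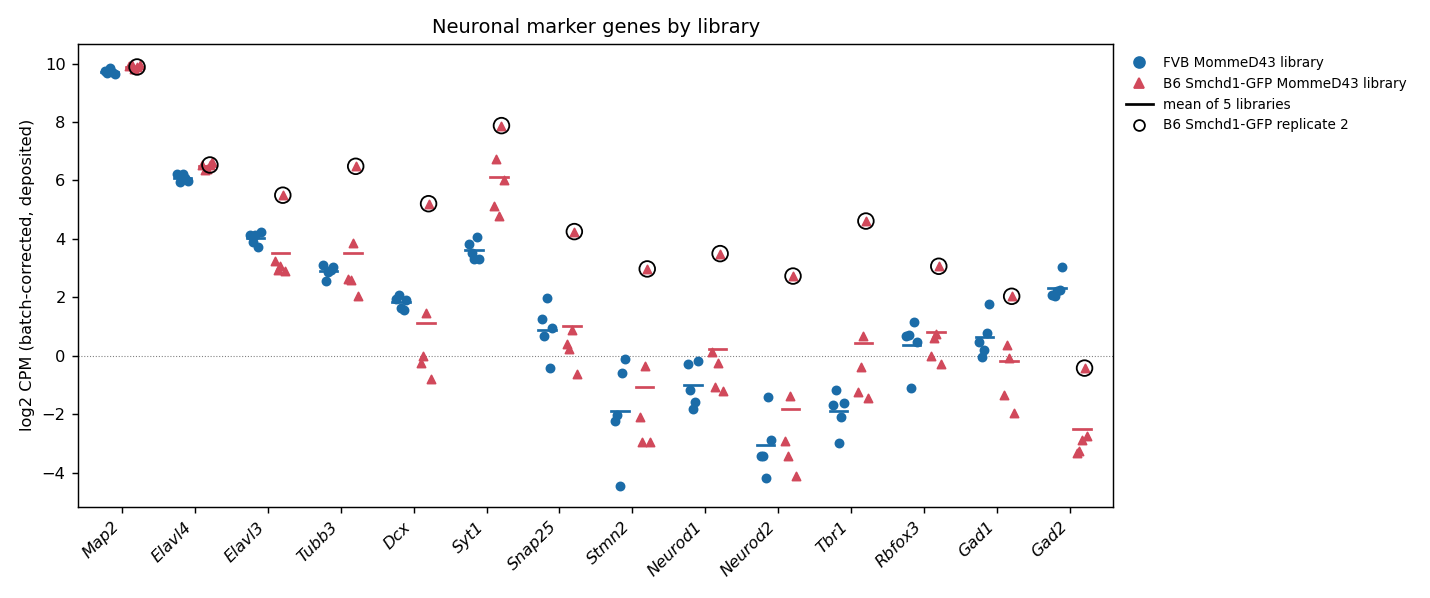
Deposited log2 CPM of the 14 neuronal genes in each MommeD43 library, with B6-GFP replicate 2 ringed and bars at the mean of 5 libraries. That library is highest for Dcx (5.20), Tubb3 (6.48), Snap25 (4.25) and Tbr1 (4.61), while Gad2 stays low in all 5 B6-GFP libraries.

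Markers of cells from outside the neural lineage were low in both strains. The summed level of 7 vascular genes was 1.70 to 1.90 log2 CPM in FVB and 0.44 to 3.80 in B6-GFP, the highest being replicate 2, and 1 gene was called, lower. For 6 fibroblast genes it was 1.96 to 2.98 and 2.52 to 4.70. Of these 6 genes 1 was called higher and 1 lower. That is 16.7% each, against 14.7% and 19.6% of all genes. Only 1 of the 6 had a mean above 1 CPM in either strain. Foxc1, a forkhead factor of mesenchyme, was the gene called higher, by 2.13 (line means 1.31 ± 0.22 and 3.16 ± 0.90, SD, n = 4 lines). The part of such cells in the other differences was not tested.

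Genes of the growth factor pathways that sustain the culture moved more often up than down, with 9 of 32 higher (28.1%) and 3 lower and a median of 0.15. Without quality weights 3 passed, all higher. Fgf1, a fibroblast growth factor, read 3.65, 3.97, 3.81, 3.16 and 3.90 in FVB and 5.88, 6.25, 6.46, 5.15 and 6.30 in B6-GFP (2.15, SE 0.16, adjusted p = 1.69e-09). The receptors Fgfr2 (-1.16) and Fgfr3 (-0.79) were lower, and Fgfr1 (-0.15, adjusted p = 0.169) and Egfr (-0.11, adjusted p = 0.227) did not pass. Dusp4, a phosphatase that is induced by ERK and limits it, was 0.71 higher. Fgfr2, Fgfr3 and Dusp4 were not called with no quality weights (adjusted p = 0.255, 0.254 and 0.191), and Fgfr3 was -1.34 without B6-GFP replicate 1.

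Of 29 MHC class I genes and processing partners, 2 were called higher and 13 lower (44.8%) in B6-GFP cells. Their summed level overlapped, at 11.10 to 11.14 log2 CPM in FVB and 10.77 to 11.17 in B6-GFP. The classical genes H2-K1 and H2-D1, which present peptides to T cells, were lower (-0.62 and -1.23), with H2-D1 at 5.22 to 5.63 in FVB libraries and 3.93 to 4.32 in B6-GFP. H2-Q1 (2.65 ± 0.15 against -0.14 ± 0.14, SD, n = 4 lines) and H2-Q6 (1.37 ± 0.49 against -0.79 ± 0.09) were near the floor in B6-GFP cells. H2-T24 was on the floor in FVB, at -3.15 to -2.52, and at 1.06 to 1.33 in B6-GFP, and H2-T22 was 1.26 higher. B2m, the shared light chain on chromosome 2, did not pass (0.16, adjusted p = 0.165). The heavy-chain genes are near-identical copies that differ between haplotypes, so their separate values are uncertain.

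The interferon-response list behaved differently from one library to another. Of 46 genes, 14 were called higher (30.4%) and 3 lower (6.52%), against 14.7% and 19.6% of all genes. However, 12 of those 14 had a B6-GFP line mean below 1 log2 CPM. Lines did not overlap in 3 of the 46 genes, against 21.3% of all genes. The summed level of the 46 was 8.34 to 8.61 log2 CPM in FVB and 7.91 to 9.77 in B6-GFP. The value 9.77 was replicate 3 in batch 3, with the next at 8.48. Irf7, a regulator of this response, read 2.37 there and -0.47 in the batch 1 library of the same line. Without replicate 3 the counts were 22 higher and 6 lower, and with no quality weights 0 higher and 1 lower, so the calls depended on the weighting. Gbp7, a guanylate-binding protein, was lower in all 29 settings (5.63 to 6.02 in FVB, 2.96 to 5.94 in B6-GFP, difference -1.48). Stat2 (-0.73) and Herc6 (-0.39) were also lower, and Herc6 was called in 20 of 29 settings, with -0.21 (adjusted p = 0.0885) without FVB replicate 2 and -0.25 without B6-GFP replicate 1. Rsad2 was 0.82 higher and was called in 16 of 29 settings.

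Some redox genes beside Nnt were also called lower. In the glutathione list 2 of 34 were called higher and 14 lower (41.2%), with a median of -0.34, and with no quality weights 2 were higher and 4 lower. Slc7a11, the cystine importer that feeds glutathione synthesis, read 7.41, 7.25, 7.25, 7.49 and 7.25 in FVB and 6.22, 5.92, 5.85, 5.70 and 6.82 in B6-GFP (-1.16, SE 0.12, adjusted p = 4.78e-07). The glutathione transferases Gstt1 (-1.14), Gstm4 (-0.95) and Gsta4 (-0.93) were lower. Dropping the quality weights lost the calls of Gstt1 (adjusted p = 0.200) and Gstm4 (adjusted p = 0.386), and Gstt1 was -0.53 (adjusted p = 0.107) without B6-GFP replicate 1, -0.81 (adjusted p = 0.0546) without wild-type B6-GFP replicate 2, and Gsta4 was -0.60 without FVB replicate 2. Of 28 mitochondrial redox genes 3 were higher and 9 lower, the latter 32.1% against 19.6% of all genes. The counts were 4 and 15 without replicate 3 and 1 and 4 with no quality weights. Me3, a mitochondrial NADP-dependent malic enzyme, read 2.68 to 4.08 in FVB and -0.31 to 1.31 in B6-GFP. Nadk2, which makes mitochondrial NADP, was lower (-0.80), as was Glud1, glutamate dehydrogenase (-0.65). Of 84 oxidative phosphorylation genes 3 were higher and 22 lower. That is 29.8% called against 34.4% of all genes, and 26.2% lower against 19.6%. The median was -0.12, and 1 gene was over 2-fold. The counts were 6 and 32 without replicate 3, 0 and 6 with no quality weights, and 5 and 14 with each library centred. The differences were -0.60 for Uqcrc2 of complex III and -0.53 for Cox5a of complex IV. Without FVB replicate 2 Uqcrc2 differed by -0.12 (adjusted p = 0.446), and its call was also lost in batch 1 alone (adjusted p = 0.180).

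Among zinc finger genes most calls were lower, and among ribosomal protein genes most were higher. Of 365 zinc finger genes 19 were higher and 169 lower (46.3%), the median was -0.26 and 25 were over 2-fold. With each library centred the counts were 27 and 145, and with no quality weights 5 and 27. Zfp459, from a chromosome 13 cluster of such genes, read 0.63 to 1.37 in FVB and -4.24 to -1.63 in B6-GFP, and Zfp119b and Zfp78 were also below 0 in B6-GFP on average. Of 83 ribosomal protein genes 30 were higher (36.1%) and 2 lower, with a median of 0.17, and without replicate 3 these counts were 53 and 3. With no quality weights they were 5 and 0. Rps2 was 1.56 higher (7.30 to 7.55 in FVB, 8.87 to 9.27 in B6-GFP), Rpl35a 1.08 higher and Rps4l 2.81 higher, again with processed copies that make single values uncertain.

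**Figure D4:**
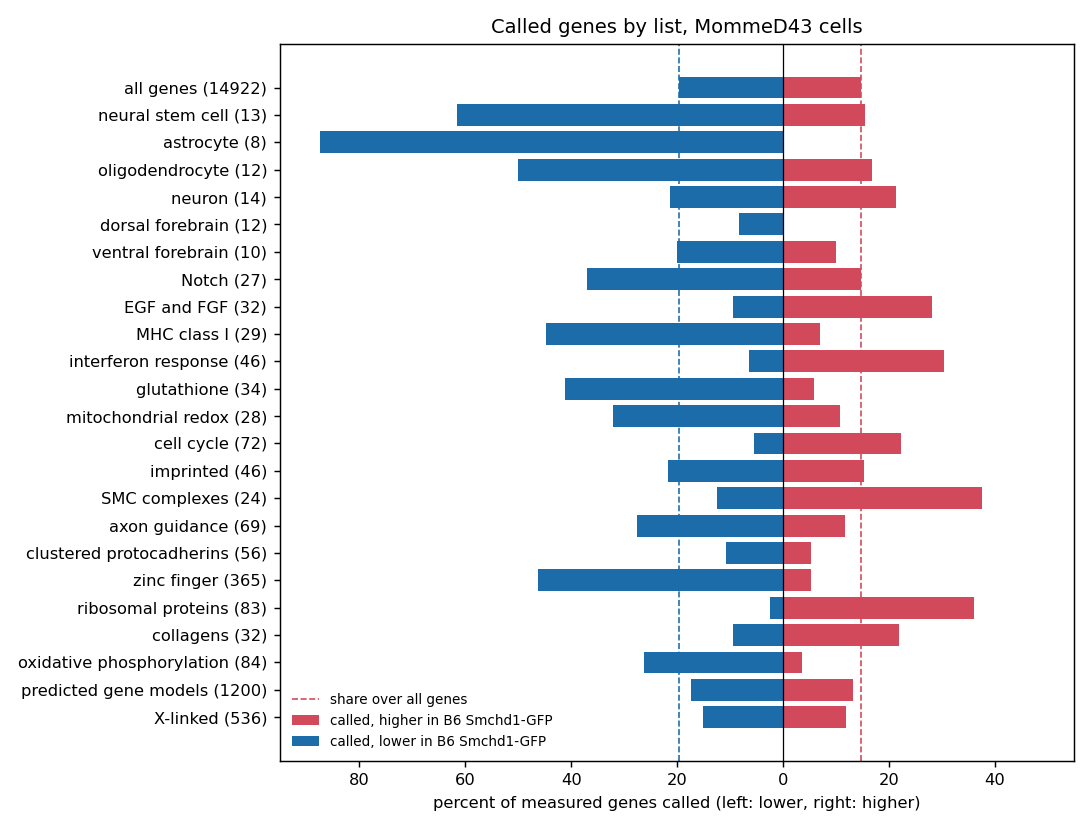
Percent of measured genes called lower (left) and higher (right) in B6-GFP MommeD43 cells for each list, with the number measured in brackets and dashed lines at the share over all genes (19.6% and 14.7%). Astrocyte markers (87.5% lower) and zinc finger genes (46.3% lower) lie beyond the left line, and ribosomal proteins (36.1% higher) beyond the right.

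Clustered protocadherins and X-linked genes were looked at because SMCHD1 takes part in silencing the protocadherins and the inactive X chromosome. Genes of SMC complexes were then added as relatives and partners of SMCHD1. Of 56 clustered protocadherins, which give neurons their surface identity, 3 were higher and 6 lower (16.1% called against 34.4% of all genes). The median was -0.03. Without replicate 3 the counts were 3 and 17, beside 3394 and 4785 over all 14922 genes. Pcdhgb8, annotated as a transcribed pseudogene of the gamma cluster on chromosome 18, read 3.27, 3.43, 3.20, 3.55 and 3.14 in FVB and 0.20, 0.05, 0.21, 0.08 and 0.22 in B6-GFP (-3.23, SE 0.15, adjusted p = 1.62e-12). Pcdhgb5 (-1.05) and Pcdhgb4 (-0.62) of the same cluster were lower, and Pcdhb19 was 0.53 higher. In the list, 0 were higher and 2 lower with no quality weights, and the calls of Pcdhgb4 (adjusted p = 0.150) and Pcdhb19 (adjusted p = 0.295) were lost there and in batch 1 alone. Without FVB replicate 2 these differences were -0.37 for Pcdhgb4 and 0.39 (adjusted p = 0.0636) for Pcdhb19. Of 536 X-linked genes 64 were higher and 81 lower (27.1% called), with a median of -0.02, or 118 and 139 without replicate 3 and 4 and 11 with no quality weights. Xist, the RNA that coats the inactive X chromosome, was listed at -2.45 to 0.95 log2 CPM across all 22 libraries. Of 24 cohesin, condensin and other SMC-complex genes 9 were higher (37.5%) and 3 lower (12.5%), and none by over 2-fold. The shares over all genes were 14.7% and 19.6%. The condensin subunits Ncapd2 and Ncapg2 were 0.43 and 0.49 higher and Smc2 0.32 higher, and Lrif1, a partner of SMCHD1 on the inactive X, was lower (-0.34). With no quality weights 1 of the 24 passed.

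The last question was whether a strain difference in MommeD43 cells was also present in wild-type cells, in libraries that shared no sample with them but were batch-corrected together. In wild-type cells 6131 genes (41.1%) were called. Of the 5126 MommeD43 calls 4338 were also called in wild-type cells, which is 84.6% of the MommeD43 list and 70.8% of the wild-type list, and 4337 of them had the same direction. Across genes the 2 differences gave Pearson 0.916 and Spearman 0.855, reported as a description because genes are not independent and the batch correction was shared. Nnt differed by -1.56 in wild-type cells, Dact1 by 2.72, Hes5 by -2.66 and Pcdhgb8 by -3.19, each beside the MommeD43 value given above.

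The test of the difference itself called 0 of 14922 genes (limma, smallest adjusted p = 0.243), with 459 at an unadjusted p under 0.05, and without quality weights 0 and 95. It called 12 genes without B6-GFP replicate 1, 4 without B6-GFP replicate 3, 3 without FVB replicate 2 and 1 without wild-type B6-GFP replicate 1. Shd was among those called without B6-GFP replicate 1, without B6-GFP replicate 3 and without FVB replicate 2. The 3 genes with the smallest p are given as values. Shd, an SH2-domain adaptor, had line means of 3.69 ± 0.09 in FVB MommeD43, 3.14 ± 0.17 in B6-GFP MommeD43, 2.84 in wild-type FVB and 3.14 in wild-type B6-GFP. Its strain difference was -0.54 in MommeD43 and 0.29 in wild-type cells, a gap of -0.83 (SE 0.15, adjusted p = 0.243 in limma). For the Wnt receptor Fzd10 the differences were 1.37 and 0.49, and for the sialyltransferase St3gal6 -0.32 and -1.08, with an adjusted p of 0.9998 in limma for both gaps.

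**Figure D5:**
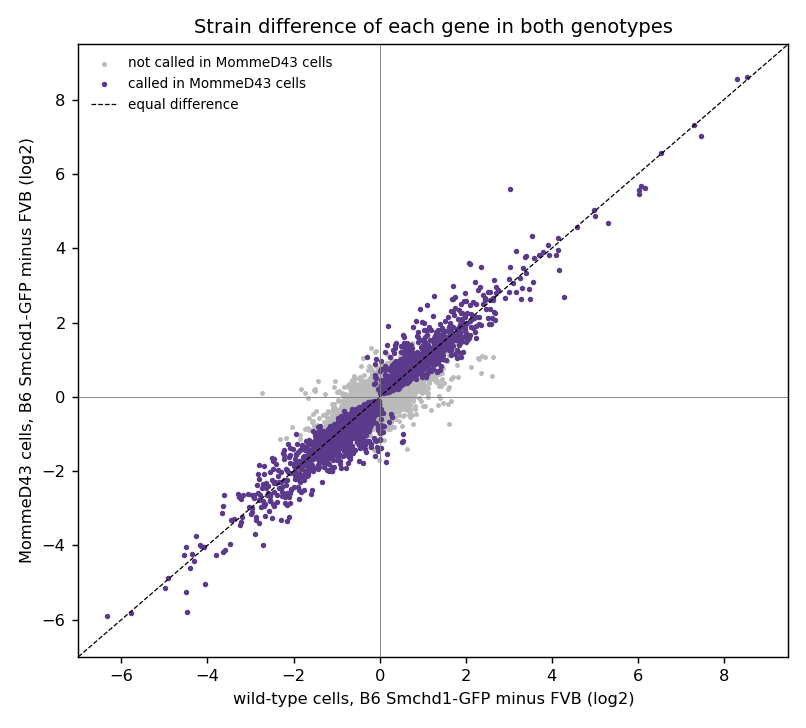
Fitted strain difference (B6-GFP minus FVB, log2) of each of 14922 genes in wild-type cells (horizontal) and MommeD43 cells (vertical), with the 5126 genes called in MommeD43 cells in colour and a dashed line of equal difference. The called genes follow the line, with a Pearson correlation of 0.916 over all genes.

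These p-values rest mainly on the weighted spread between libraries, pooled over all groups, since the correlation within a line was only 0.0827. The labels do not say which lines shared a litter. Batches 2 and 3 each held a single strain and added no strain difference of their own, so batch 1, with 2 MommeD43 libraries per strain, was fitted alone. It called 3596 genes, of which 3347 (93.1%) were called above with the same direction. Those batch 1 libraries were also in the full fit, so this overlap is not an independent check.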

How the data were processed

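RNA was taken as polyA libraries from 100 ng per sample, sequenced single-end on a NextSeq. According to the study's methods and the labels, the authors trimmed reads with Trim Galore 0.4.4, aligned them with HISAT2 2.0.5 to GRCm38.p6 and removed batch effects with limma 3.40.6. The deposited values are log2 CPM after that correction, not counts. The low values were whole multiples of a step per library, which gave relative depth only. Of 24 columns, 2 equal to the mean of their group (within 1e-06) were left out. The 22 others entered 1 limma 3.58.1 fit (R 4.3.3), whose terms were group and batch, with array quality weights (0.1 to 4.9), lines as a block (correlation 0.0827, 16 residual degrees of freedom) and trended variances. A gene was called at a Benjamini-Hochberg adjusted p under 0.05 over all genes, and 247 rows without a symbol were tested but not named. The fit was also run on simulated data that held no batch effect, which does not check the handling of batch. A library repeated in another batch counted as the same line, and mean ± SD was taken over lines.

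Genes were named by a rule: Smchd1, Nnt, Gabra2 and Glo1 always; among called genes whose lines did not overlap, those near the floor (below 0) in one strain and at least 3 in the other (up to 8 each way) and the 10 largest each way with both means at least 1; up to 4 called genes per list with a higher mean of at least 1; and the 3 smallest p for the difference between genotypes. Some items are not reported here. Other genes named for their role were chosen after their values were seen. The members, lists and tests were chosen with earlier results of these data known. Alternatives covered weights, centring, filters, an added 1 CPM, blocks, batches, line means and each line left out; 2 that drop the weights in batch 1 or in line means, and the lists without B6-GFP replicates 2 or 3, were added after seeing the data.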

Additional observations from a re-analysis of the deposited data

Results flagged for a closer look

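Among the 107 named genes, each strain's 4 lines were screened for a line far from the other 3, by Dixon's gap, in 214 groups. Chance marks about 1 group in 20, and 6 (2.8%) were marked. B6-GFP replicate 2 was the high line for 3 of them. Gad2 was at -0.42 there and at -3.32 to -2.87 in the other B6-GFP lines. Elavl3, a neuronal RNA-binding protein, was at 5.50 against 2.91 to 3.25, and Sema4d, a semaphorin, at 3.06 against 0.60 to 0.64. All 3 were called lower in B6-GFP cells, and with no quality weights the calls of Elavl3 (-0.35, adjusted p = 0.772, limma) and Sema4d (-0.73, adjusted p = 0.504) were lost. B6-GFP replicate 3 was low for Gm13304, at 2.13 against 3.45 to 3.70. B6-GFP replicate 4 was high for Col5a3, a fibrillar collagen, at 5.91 against 3.87 to 4.18. FVB replicate 2 was high for Foxc1, at 1.63 against 1.18 to 1.23.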

How the results depend on the processing

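The count of strain differences in MommeD43 cells depended on the quality weights and on the columns used. It was 5126 as reported, 1017 with no quality weights, 2138 with line means and no weights, 2894 in batch 1 with no weights, 3403 with MommeD43 libraries alone and 13991 with all 24 columns, where columns equal to a group mean narrow the spread. In wild-type cells it was 6131, and 1259, 2091 and 3051 with no weights over all libraries, line means and batch 1. Each line left out gave 4644 to 8179 calls in MommeD43 cells and 4014 to 6400 in wild-type cells, the last low value without wild-type FVB replicate 2, and the cause was not tested. Lines that do not overlap numbered 3403 to 4556, with 1 line fewer to separate. The difference between genotypes gave 61 calls with all 24 columns, 0 to 12 with a line left out, and 0 in the other settings. The replicate numbers did not pair the samples (correlations of deviations -0.128, -0.029 and -0.135), and a fit with the replicate block called 4870 genes in MommeD43 cells and 6861 in wild-type cells. For the 107 named genes, 2973 of 3103 gene and setting pairs kept direction and side of the threshold, 122 lost the call, 6 gained it and 2 changed sign: with a line left out Glo1 ran from -0.02209 (without FVB replicate 1) to 0.1411 and St3gal6 from -0.5324 to 0.03235 (without B6-GFP replicate 1), and neither was called in the reported fit. The batch 2 libraries were the shallowest, at 0.137 to 0.19 of the deepest, which limits genes near the floor in FVB cells.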

Other observations

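Of 72 cell cycle genes 16 were called higher (22.2% against 14.7% of all genes) and 4 lower in B6-GFP MommeD43 cells. The share called was 27.8% against 34.4% of all genes, and the median was 0.08 against -0.03 over all genes. Ccnd1, the G1 cyclin that growth factors induce, read 10.88 to 11.21 in FVB lines and 11.38 to 11.95 in B6-GFP lines (0.64 higher). Cdk6, its partner kinase, was 0.53 higher, and Cdkn1c, an inhibitor of cyclin-dependent kinases that is also imprinted, was lower (-1.55). Cdkn2a, an inhibitor that rises in ageing cultures, was 0.82 higher. With no quality weights 1 gene was higher and 1 lower, the calls of Cdk6, Cdkn1c and Cdkn2a being lost (adjusted p = 0.0670, 0.0562 and 0.301), and without B6-GFP replicate 3 the counts were 26 and 4.

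Of 46 imprinted genes 7 were higher and 10 lower, 37.0% against 34.4% of all genes, and 1 and 1 with no quality weights. Ddc (-1.80) and H19 (-1.21) were lower and Asb4 was 1.37 higher. H19 was not called with no quality weights (adjusted p = 0.183) or in batch 1 alone (adjusted p = 0.0943), and without B6-GFP replicate 1 H19 was -1.85 and Ddc -0.98. Axon guidance genes held 8 higher and 19 lower of 69 (39.1% called), but 1 passed with no quality weights. Slit1, a repellent ligand, was 1.38 higher, and Sema5a (-2.11) and Plxnb3 (-1.25) were lower. Without B6-GFP replicate 1 Sema5a was -1.26. Of 32 collagens 7 were higher and 3 lower (31.2% called), or 8 and 11 without replicate 3. The basement membrane chain Col18a1 was 1.88 higher and Col12a1 1.69 higher. Col28a1 was near the floor in FVB cells (-0.64 ± 0.59 against 2.87 ± 1.40, SD, n = 4 lines). Of 1200 predicted gene models 159 were higher and 209 lower (30.7% called), or 253 and 350 without replicate 3.

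Genes that differed by over 2-fold lay close together in places, in windows of 2 Mb counted in GRCm38.p6. In chromosome 4, 42000001 to 44000000, 10 of 41 genes did, 8 of them higher in B6-GFP, among them Gm13304, Gm10591 and Ccl21a, while Ccl27b was lower. In chromosome 17, 36000001 to 38000000, 8 of 21 did, 6 lower, including H2-T10 and H2-T23. Both windows hold families of near-identical copies, so single values there are uncertain.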
